A study of Mus musculus with 4 samples.

Results

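The data described here are the transcript counts of the platelet-derived growth factor (PDGF) ligands and receptors in mouse lung nuclei. The members were the 6 genes of the family, chosen by symbol, out of 32285 genes counted. They comprised the 4 ligand genes Pdgfa, Pdgfb, Pdgfc and Pdgfd and the 2 receptor genes Pdgfra and Pdgfrb. Single-nucleus RNA sequencing was performed on the lungs of 2 WT mice (strain C57/BL6J) and 2 VEcad-TRF2DN-Tg mice, all 8-9 weeks old and all exposed to chronic hypoxia. The VEcad-TRF2DN-Tg mice carried 1 further element, a dominant-negative TRF2 (a protein of the telomere cap) driven by the VE-cadherin promoter, which is active in endothelial cells (ECs), and were bred as heterozygotes with WT C57/BL6J mice. The animals of each genotype are called WT 1, WT 2, Tg 1 and Tg 2 after the replicate numbers of their labels. The transgene was not counted as a feature of its own, so the genotype labels were not checked against it.

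PDGF ligands are secreted dimers that bind the tyrosine kinase receptors PDGFRα and PDGFRβ, which then recruit signalling adaptors and drive growth and migration of mesenchymal cells. PDGF-A and PDGF-B are processed inside the cell, whereas PDGF-C and PDGF-D are secreted as latent proteins that extracellular proteases must cut. In the lung, epithelial PDGF-A is known to act on PDGFRα-bearing fibroblasts during alveolar development, and endothelial PDGF-B is known to recruit PDGFRβ-bearing pericytes and smooth muscle cells (SMCs) to vessels. This signalling is also well known in pulmonary vascular remodelling. The comparison of WT and VEcad-TRF2DN-Tg lungs asks how a lung with progeroid ECs differs under hypoxia.

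In the annotation of the mm10 build, Pdgfa lies on the minus strand of chromosome 5 from 138976014 to 138997370 and spans 21.4 kb. Pdgfb lies on the minus strand of chromosome 15 from 79995874 to 80014977 and spans 19.1 kb. Pdgfc and Pdgfd are long genes, with spans of 177.6 kb on chromosome 3 (81036416 to 81214040) and 210.3 kb on chromosome 9 (6168584 to 6378850). Pdgfra covers 45.9 kb of chromosome 5 from 75152292 to 75198215, and Pdgfrb covers 39.9 kb of chromosome 18. Intronic reads were counted in these nuclear libraries, and exons make up only 1.5% of the Pdgfd span and 2.9% of the Pdgfc span, against 13.7 to 21.8% for the other members.

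The libraries held 125261739 to 182014706 unique molecular identifiers (UMIs, each standing for 1 captured transcript). Barcodes with at least 1500 UMIs numbered 26933 in WT 1, 38543 in WT 2, 25269 in Tg 1 and 44000 in Tg 2. Each pair of libraries shared 176 to 475 of these barcode sequences, at most 1.3% of either. Barcodes with 300 to 800 UMIs served as empty droplets and gave the level of free RNA. They numbered 7688 in WT 1, 10371 in WT 2, 18387 in Tg 1 and 2732 in Tg 2. The barcodes that were explained better by a nucleus than by free RNA alone, and were no doublets, were grouped by k-means clusters into classes named from marker genes, with the PDGF genes left out of the clustering. A nucleus explained 12037 of 26933 barcodes better in WT 1 and 16232 of 38543 in WT 2. In Tg 1 it was 24993 of 25269 and in Tg 2 36388 of 44000, a larger share than in either WT library. Whether this difference moved the class comparisons was not tested. With doublets left out, 10781, 13276, 18733 and 26527 barcodes remained, of which 0.55, 5.69, 3.95 and 17.78% lay in clusters left unnamed. In total, 18 named classes held at least 10 barcodes in every mouse. No cluster was led by the marker lists of SMCs, myofibroblasts, neutrophils or NK cells, so SMCs, a main target of PDGF-B, were not measured as a class.

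Levels are given as UMIs per 1000000 UMIs of the class in a mouse (CPM), with the standard deviation (SD) over the 4 mice. Free RNA made up 23.1 to 70.6% of the UMIs of these classes by estimate, so that a class which does not transcribe a gene still shows a level below that of the empty droplets. Each member exceeded the empty droplets in all 4 mice in only a few of the 18 classes. The number of such classes was 2 for Pdgfa, 4 for Pdgfb, 2 for Pdgfc, 6 for Pdgfd, 2 for Pdgfra and 3 for Pdgfrb. By the ratio of the class mean to the empty droplets, the highest ligand values were in epithelium, ECs, mesothelium and macrophages and the highest receptor values in fibroblasts and pericytes. Ligand ratios above 1 were also found in receptor classes, with 2.39 for Pdgfd in adventitial fibroblast-like and 1.53 for Pdgfa in pericyte-like nuclei.

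**Figure D1:**
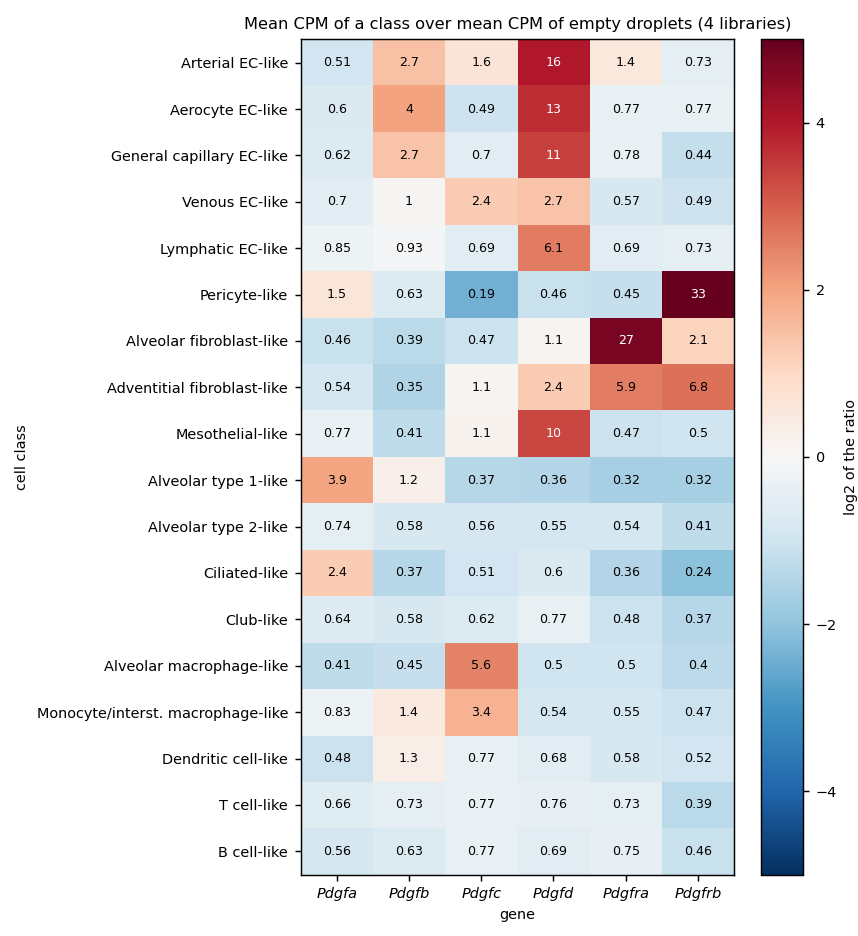
Heat map of the mean CPM of each PDGF member (columns) in each of 18 cell classes (rows), divided by its mean CPM in the empty droplets of the same 4 libraries. Numbers in the cells are that ratio and the colour is its log2. The largest ratios are 33.3 for Pdgfrb in pericyte-like and 26.9 for Pdgfra in alveolar fibroblast-like nuclei.

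Pdgfa, which encodes the PDGF-A chain, was highest in alveolar type 1-like nuclei, the thin epithelium of gas exchange. Its level there was 191 CPM in WT 1, 205 in WT 2, 242 in Tg 1 and 191 in Tg 2 (mean 207 ± 24.2, SD, n = 4), from 3556 UMIs in all. The values lay close together in 3 mice and were highest in Tg 1, and in each of them the next class was lower. Ciliated-like nuclei followed with 123, 125, 155 and 119 CPM in the same order. Pericyte-like nuclei came next by mean, at 81.7 ± 42.4 CPM (SD, n = 4), but ranged from 45.7 to 133 CPM on 3 to 16 UMIs a mouse and overlapped the empty droplets. The empty droplets held 45.7 CPM in WT 1, 39.0 in WT 2, 71.6 in Tg 1 and 57.5 in Tg 2. In 12 of the 18 classes Pdgfa was below the empty droplets in every mouse, including alveolar type 2-like nuclei (33.2 to 49.3 CPM) and alveolar macrophage-like nuclei (15.0 to 29.9 CPM).

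Pdgfb, which encodes the PDGF-B chain bound by both receptors, was highest in 3 of the 5 EC classes. Aerocyte EC-like nuclei, the capillary cells specialised for gas exchange, were highest by mean, with 116 CPM in WT 1, 151 in WT 2, 228 in Tg 1 and 175 in Tg 2. Both WT values lay below both Tg values there. Such non-overlap of the genotypes, in either direction, was found for 60.6% of all gene tests in the 18 classes and for 43 of the 81 tests of members. Arterial EC-like nuclei had 46.1, 161, 137 and 109 CPM, on 4 to 26 UMIs a mouse, and overlapped the aerocyte values. General capillary EC-like nuclei had 99.6, 97.0, 135 and 114 CPM and were above the next class in every mouse. The arterial range thus overlapped both capillary classes, while aerocytes were above general capillary ECs within each of the 4 mice. Monocyte or interstitial macrophage-like nuclei (34.9 to 91.9 CPM) and dendritic cell-like nuclei (30.4 to 92.1 CPM) came next by mean, both highest in Tg 1, and overlapped the empty droplets. Venous EC-like nuclei (16.2 to 59.8 CPM) and lymphatic EC-like nuclei (23.4 to 48.6 CPM) overlapped the empty droplets (38.1 to 47.2 CPM). Free RNA was estimated at only 39.6 to 44.6% of the venous and 40.5 to 48.7% of the lymphatic UMIs. This overlap therefore does not show that these ECs lack Pdgfb transcripts of their own. Alveolar type 1-like nuclei were slightly above the empty droplets in all mice at 49.4 ± 2.2 CPM (SD, n = 4).

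Pdgfc, a protease-activated ligand of PDGFRα, was highest in alveolar macrophage-like nuclei. Its level there was 128 CPM in WT 1, 207 in WT 2, 213 in Tg 1 and 223 in Tg 2, from 7719 UMIs in all. Only WT 1 stood apart, below the other mice. Monocyte or interstitial macrophage-like nuclei came next with 151, 84.1, 84.0 and 147 CPM, and in WT 1 they exceeded the alveolar macrophages. Venous EC-like nuclei held 91.9, 46.2, 98.7 and 92.3 CPM, below the empty droplets only in WT 2, where the value rests on 6 UMIs. Arterial EC-like nuclei had 138, 26.8, 31.6 and 19.9 CPM on 12, 1, 6 and 2 UMIs, so that WT 1 alone was high. Aerocytes held 16.7 ± 4.9 CPM and general capillary ECs 24.0 ± 9.8 CPM (SD, n = 4), against 22.1 to 48.8 CPM in the empty droplets. Pericyte-like nuclei had the lowest mean, and 1 mouse, Tg 1, had 0 UMIs, which allows up to 45.7 CPM.

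Pdgfd, a protease-activated ligand of PDGFRβ, had the broadest pattern of the family. Arterial EC-like nuclei were highest by mean, with 1603 CPM in WT 1, 912 in WT 2, 868 in Tg 1 and 1003 in Tg 2. Aerocyte EC-like nuclei had 966, 674, 959 and 874 CPM, and general capillary EC-like nuclei had 881, 596, 768 and 686 CPM. Mesothelial-like nuclei, the lining of the lung surface, had 812, 562, 740 and 619 CPM and formed the highest class outside the ECs. The ranges of neighbouring classes in this order overlapped, while that of the mesothelial-like nuclei lay below that of the arterial ECs, and within each mouse aerocytes were above general capillary ECs and these above mesothelial-like nuclei. Lymphatic EC-like nuclei followed at 411 ± 149 CPM (SD, n = 4), above the venous EC-like nuclei in all 4 mice.

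Venous EC-like nuclei had 143 CPM of Pdgfd in WT 1, 108 in WT 2, 221 in Tg 1 and 248 in Tg 2, the lowest level among the EC classes. Adventitial fibroblast-like nuclei overlapped them at 276, 36.8, 249 and 86.0 CPM. The remaining 11 classes were below the empty droplets in at least 1 mouse. In 9 of them, such as alveolar type 1-like nuclei (17.7 to 29.4 CPM), the level was below the empty droplets (103, 69.7, 45.6 and 52.3 CPM) in every mouse.

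**Figure D2:**
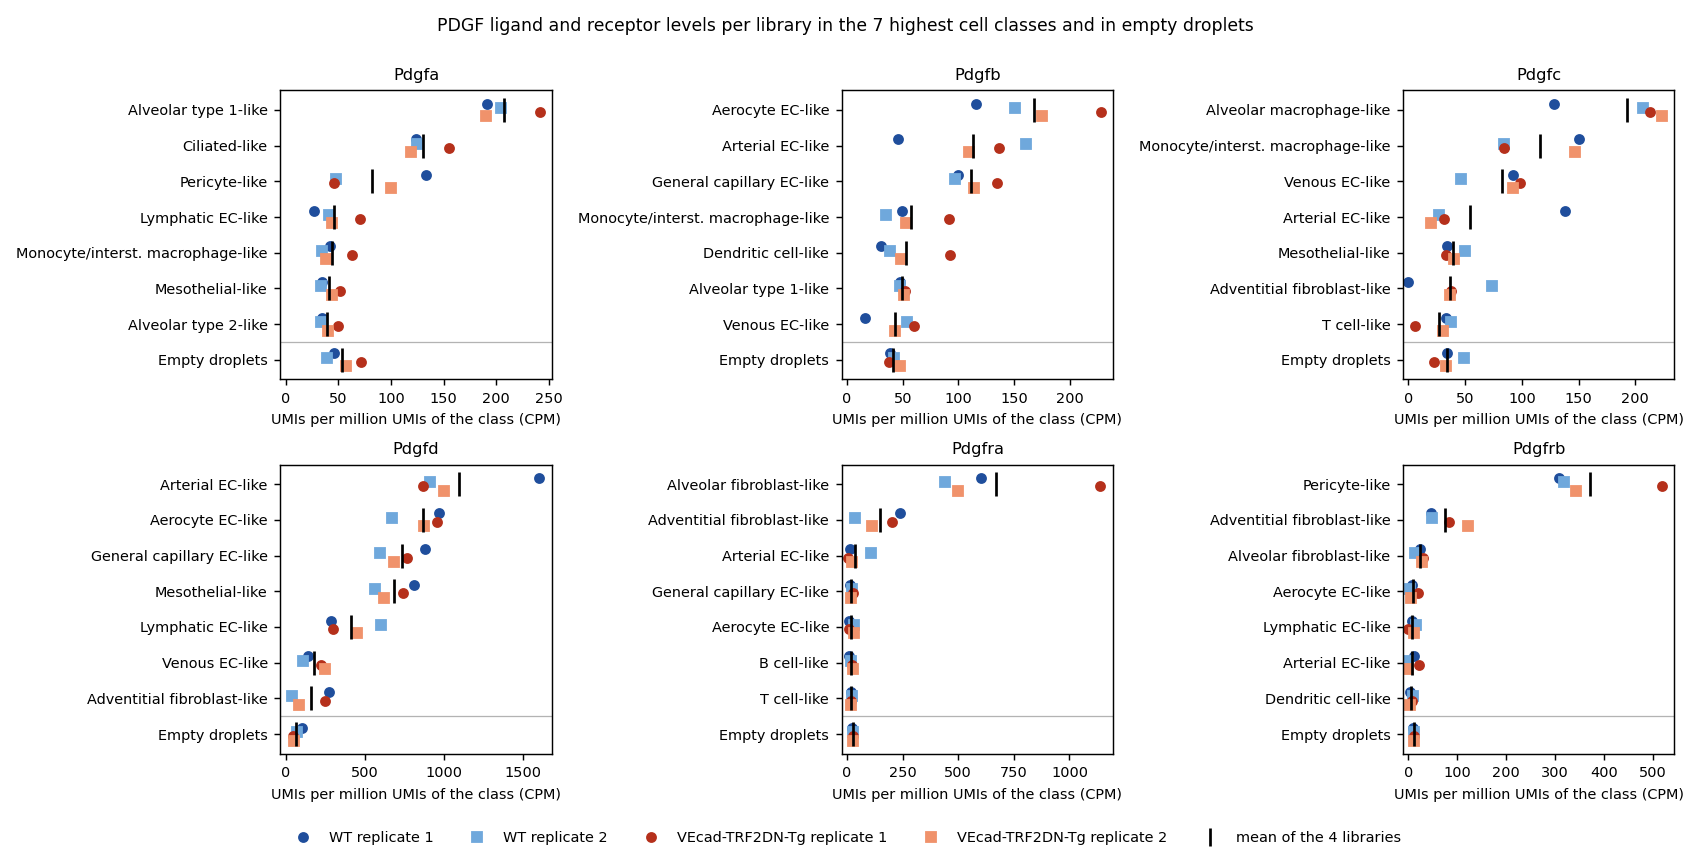
Level of each PDGF member in CPM (horizontal axes, from 0) in its 7 highest cell classes and in empty droplets (vertical axes), with 1 point for each of the 4 libraries and a tick at their mean. Pdgfd in arterial EC-like nuclei reaches 1603 CPM in WT 1, and Pdgfra in alveolar fibroblast-like nuclei reaches 1139 CPM in Tg 1.

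Pdgfra, the receptor that binds the A, B and C chains, was the transcript of fibroblasts. Alveolar fibroblast-like nuclei held 603 CPM in WT 1, 441 in WT 2, 1139 in Tg 1 and 500.0 in Tg 2, from 2019 UMIs in all. Tg 1 stood far above the other 3 mice, and the WT and Tg ranges overlapped. The cluster with the most alveolar fibroblasts differed between the 4 mice, namely clusters 46, 51, 50 and 43 in this order, with 86.6, 50.7, 68.4 and 35.1% of them. Cluster 50 held 68.4% of those of Tg 1, with 197 barcodes against 0, 5 and 4 in WT 1, WT 2 and Tg 2. Whether this cluster is a cell type or follows that library was not tested. Pooled Pdgfra levels ranged from 396 CPM in cluster 51 to 1164 CPM in cluster 50 across the 5 clusters of the class.

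Adventitial fibroblast-like nuclei had 239, 36.8, 204 and 111 CPM of Pdgfra, which was below the alveolar fibroblasts in every mouse. A further fibroblast class, led by Chl1, Kif26b and Agtr1b, had too few barcodes in the Tg mice for a test (93, 68, 5 and 9) and held 359, 268, 611 and 652 CPM of Pdgfra. Those Tg values rest on 6 and 15 UMIs. No other class was above the empty droplets (20.5 to 27.7 CPM) in all mice, and pericyte-like nuclei held 11.2 ± 10.3 CPM (SD, n = 4) of this receptor.

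Pdgfrb, the receptor for the B and D chains and a defining gene of mural cells, was highest in pericyte-like nuclei. Its level there was 307 CPM in WT 1, 318 in WT 2, 518 in Tg 1 and 343 in Tg 2, on 30 to 55 UMIs from 32 to 61 barcodes a mouse. Both Tg values lay above both WT values, as they did for 17.7% of all genes tested in this class. Among the 18 classes, adventitial fibroblast-like nuclei came second with 45.9, 49.1, 82.9 and 123 CPM, and alveolar fibroblast-like nuclei came after them with 24.4, 13.6, 29.7 and 28.3 CPM. All 3 were above the empty droplets (9.9 to 12.3 CPM) in every mouse. The fibroblasts led by Chl1, Kif26b and Agtr1b, outside these classes, held 37.5 and 38.8 CPM of Pdgfrb in the WT mice on 14 and 11 UMIs, and 0 and 3 UMIs in their 5 and 9 Tg barcodes. The other 15 classes together held 877 Pdgfrb UMIs, where the free RNA estimate alone accounts for 862. For the other members the classes not above the empty droplets in every mouse held more UMIs than this estimate, with 5793 against 3737 for Pdgfa, 3980 against 2912 for Pdgfb, 3527 against 2144 for Pdgfc, 6528 against 4423 for Pdgfd and 2465 against 1914 for Pdgfra.

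The pericyte-like class was checked against its 12 markers, which summed to 4909 to 6148 CPM in the WT and 6372 to 6922 CPM in the Tg mice, against 72.8 to 130.5 CPM in the empty droplets. The 10 SMC markers summed to 451 to 578 CPM in WT and 511 to 625 CPM in Tg pericytes, against 81.9 to 98.2 CPM in the empty droplets. The 10 general capillary EC markers summed to 3802 to 3941 CPM in WT and 2546 to 3307 CPM in Tg pericytes, against 1820 to 1925 and 1130 to 1615 CPM in the empty droplets, and the 10 aerocyte markers to 1243 to 1532 CPM, against 350.1 to 698 CPM. In general capillary EC-like nuclei themselves, the 10 general capillary EC markers summed to 6744 to 6956 CPM in WT and 6490 to 6715 CPM in Tg mice. Of the pericyte-like barcodes, 39.1% in WT 1, 48.4% in WT 2, 53.5% in Tg 1 and 53.8% in Tg 2 were left out as doublets. The part of the EC markers in the pericyte values was not tested. In alveolar fibroblast-like nuclei the SMC markers summed to 1020 to 1456 CPM in WT and 1222 to 1351 CPM in Tg mice, and the 8 myofibroblast markers to 115 to 168 CPM over both genotypes, against up to 75.9 CPM in the empty droplets. In arterial EC-like nuclei the 10 arterial markers summed to 831 to 1984 CPM in WT and 1798 to 1940 CPM in Tg mice, and the 10 venous markers to 1019 to 2399 and 1222 to 1756 CPM, in 13 to 72 barcodes a mouse.

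The share of nuclei with at least 1 UMI of a member was compared after each barcode had been thinned to 1500 UMIs. For Pdgfrb it was 33.4% ± 3.27 in WT and 44.1% ± 10.3 in Tg pericyte-like nuclei (SD, n = 2 each), against 1.12 and 0.38% in general capillary EC-like nuclei, an endothelial class. The median depths before thinning were 1889 to 2556 UMIs in pericytes and 1935 to 2500 UMIs in those ECs, and the unthinned shares were 50.6 and 55.0% in pericytes and 1.64 and 0.60% in the ECs. For Pdgfra the thinned share was 42.8% ± 9.72 in WT and 58.7% ± 18.3 in Tg alveolar fibroblast-like nuclei, against 1.36 and 1.54% in alveolar type 1-like nuclei. The unthinned shares were 65.6 and 72.7% against 3.04 and 3.30%, at median depths of 2294 to 3582 and 3001 to 3778 UMIs.

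For the ligands, the thinned share with Pdgfa was 23.1% ± 0.24 in WT and 27.3% ± 4.57 in Tg alveolar type 1-like nuclei, against 2.82 and 4.11% in alveolar macrophage-like nuclei (median depth 2308 to 3104 UMIs). Without thinning the former were 49.2% in both genotypes and the latter 5.6 and 7.15%. Pdgfb was found in 17.1% ± 4.86 of WT and 25.0% ± 4.91 of Tg aerocyte EC-like nuclei (median depth 1951 to 2618 UMIs), against 3.44 and 2.41% of ciliated-like nuclei (3333 to 3922 UMIs). The unthinned shares were 28.4 and 34.5% against 8.94 and 6.34%. Pdgfc was found in 17.8% ± 4.72 of WT and 24.8% ± 0.42 of Tg alveolar macrophage-like nuclei, against 2.74 and 1.81% of alveolar type 1-like nuclei, and without thinning in 32.0 and 38.4% against 6.81 and 3.83%. Pdgfd was found in 54.7% ± 22.2 of WT and 63.7% ± 5.49 of Tg arterial EC-like nuclei (median depth 2132 to 3009 UMIs), against 4.91 and 3.26% of alveolar type 1-like nuclei, and without thinning in 67.2 and 75.6% against 12.01 and 6.84%. The classes set against these for the ligands ranked 17 or 18 of 18 by mean CPM. The contrasts therefore do not show how the shares differ between similar classes. In none of the 6 classes where a member was highest did the exact two-sided permutation test of the share go below p = 0.33. This is the smallest p that 2 mice against 2 allow.

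Levels of different genes were compared per 10 kb of gene span, since intronic reads were counted. How many of the reads lay in introns is not given by the counts. That UMIs rise in proportion to span was assumed and not tested. On this scale Pdgfra in alveolar fibroblasts had the highest level, with 146 CPM per 10 kb, followed by Pdgfa in alveolar type 1-like nuclei (97.0), Pdgfrb in pericytes (93.1) and Pdgfb in aerocytes (87.7). Pdgfd in arterial ECs, the highest by CPM, had 52.2 CPM per 10 kb, and Pdgfc in alveolar macrophages had 10.9.

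The genes whose pattern over the 18 class means was most like that of a member were found by Pearson correlation of log2(CPM + 5) among 14464 genes, as a description without a test, since all points share the same 4 libraries. Pdgfa was most like Epb41l4b (r = 0.86), Slc2a12 (0.85) and Cyp4f39 (0.85). Pdgfb was most like Clec1a (0.89), Tspan13 (0.87) and Ehd4 (0.84), and Pdgfc was most like Zfp993 (0.89), Creg2 (0.88) and Psma8 (0.85). Pdgfd was most like 4931406P16Rik (0.92), Sema6a (0.89) and 4930517O19Rik (0.89). The receptors had the closest matches, Pdgfra with Dpep1 (0.97), Epha3 (0.96) and Unc5c (0.95) and Pdgfrb with Aspn (0.95), Aff2 (0.92) and Mark1 (0.92). Among the members themselves the highest value was that of Pdgfb with Pdgfd (0.54), and Pdgfra with Pdgfrb gave 0.34.

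Within the cell classes, no PDGF ligand or receptor passed the test of WT against VEcad-TRF2DN-Tg mice. Pdgfb in aerocyte ECs, Pdgfd in venous ECs and Pdgfrb in pericytes were at higher levels in Tg 1 and Tg 2 than in WT 1 and WT 2, with log2 changes of 0.76, 0.97 and 0.69, but none passed once p was adjusted over all genes of the class. Over the classes, the genotypes did not overlap in 30 member tests with higher and 13 with lower Tg levels, and in 52788 with higher and 54902 with lower levels of the 177651 tests of all genes. WT and VEcad-TRF2DN-Tg mice were compared by edgeR's quasi-likelihood test on the summed counts of each class, with Benjamini-Hochberg adjustment over all genes tested in the class. Of 108 pairs of member and class, 81 passed the filter on low counts, and 0 passed an adjusted p of 0.05. Over the 18 classes, 9.08% of all gene tests passed, and 0.0316% did with the expected free RNA subtracted from each class sum. At an unadjusted p under 0.05 there were 11 member tests, where 28.1% of all gene tests were. DESeq2 on the same sums gave 0 member tests past the adjusted threshold and 4 at the unadjusted one, against 8.7 and 19.1% of all gene tests. Pdgfrb could be tested in 7 of 18 classes, Pdgfra and Pdgfc in 13, Pdgfa in 15, Pdgfb in 16 and Pdgfd in 17. In simulated counts, a fold change of 2 was recovered for 0.5% of changed genes in pericytes, 6% in alveolar macrophages, 10% in alveolar fibroblasts, 23.5% in general capillary ECs and 30% in alveolar type 1 nuclei, and a fold change of 4 for 84.5 to 98.5%. Of the genes called in these simulations, 0 to 25% were false at the smaller fold and 5.45 to 15.7% at the larger, so that the share of false calls could exceed the threshold.

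**Figure D3:**
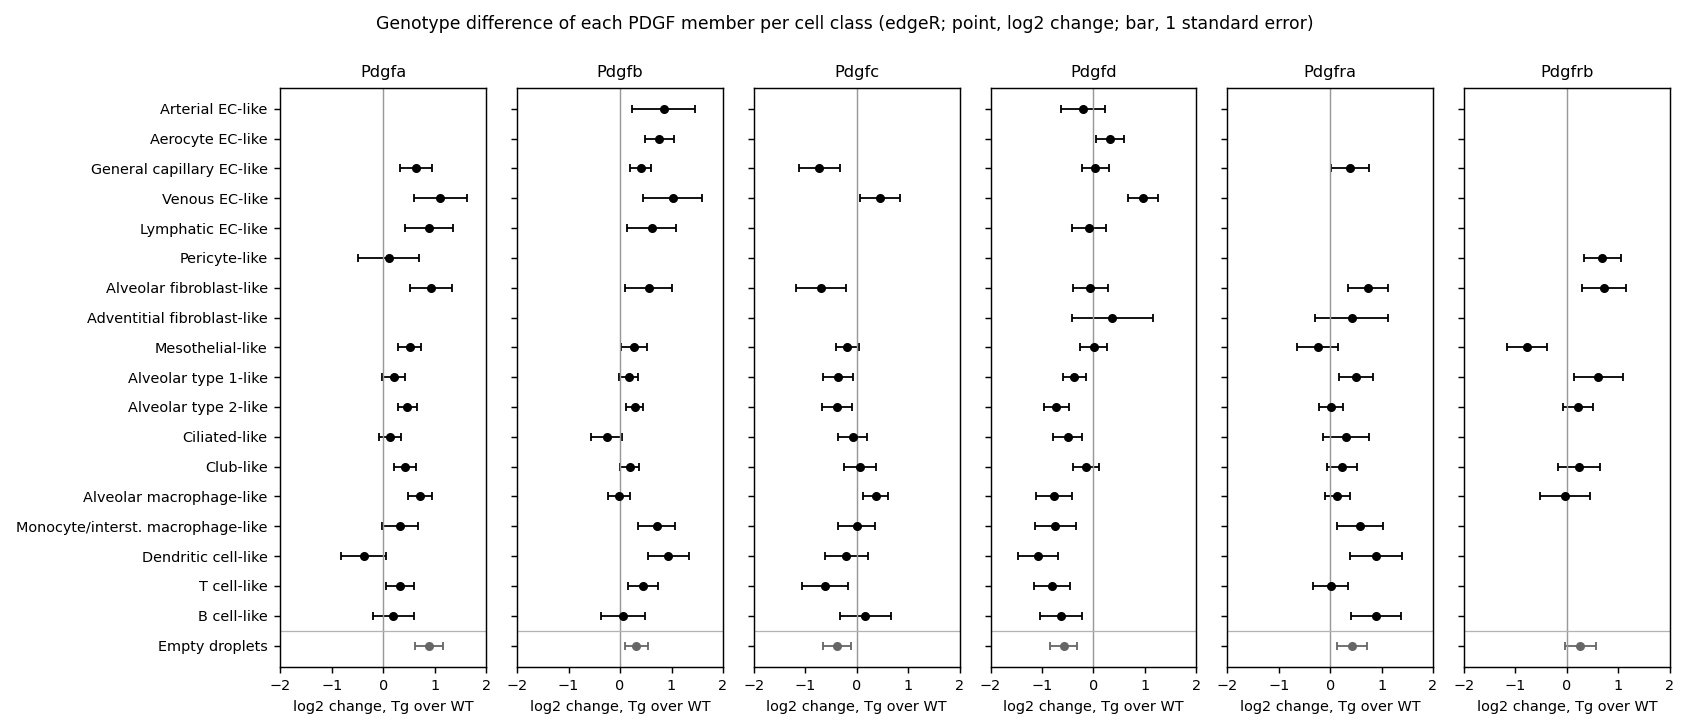
Genotype difference of each PDGF member (panels) in each cell class and in empty droplets (rows), as the log2 change of VEcad-TRF2DN-Tg over WT (horizontal axes), with bars of 1 standard error from edgeR. Classes without a point did not pass the filter on low counts, and no point passed an adjusted p of 0.05. Pdgfd in venous EC-like nuclei came closest, at 0.97.

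In the class where each ligand was highest, the log2 change (Tg over WT) was 0.20 for Pdgfa in alveolar type 1-like nuclei (standard error, SE, 0.22, edgeR adjusted p = 0.564, with 10.7% of genes called in the class). It was -0.10 when Tg 1 was left out. The cluster holding most alveolar type 1-like nuclei was cluster 8 in Tg 1 and cluster 0 in the other mice. For Pdgfb in aerocyte EC-like nuclei the log2 change was 0.76 (SE 0.285, edgeR adjusted p = 0.118, 9.92% called). It was 1.02 without Tg 2, 0.51 without Tg 1 and 0.36 with only barcodes of at least 3000 UMIs (edgeR adjusted p = 0.752). For Pdgfc in alveolar macrophage-like nuclei the log2 change was 0.37 (SE 0.239, edgeR adjusted p = 0.32, 10.4% called). It was 0.75 without WT 2 and 0.07 without WT 1. The cluster with the most of these macrophages was 31 in WT 1 (93.3%), 19 in Tg 1 (90.6%) and 12 in WT 2 (68.9%) and Tg 2 (47.5%). For Pdgfd in arterial EC-like nuclei it was -0.20 (SE 0.425, edgeR adjusted p = 0.879, 4.19% called), and 0.29 without WT 1.

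For the receptors, the log2 change of Pdgfra in alveolar fibroblast-like nuclei was 0.74 (SE 0.389, edgeR adjusted p = 0.263, 8.42% called). This value rested on single mice, since it was -0.10 without Tg 1 and 1.00 without WT 1. In adventitial fibroblast-like nuclei, where WT 2 had only 3 UMIs of either gene, the log2 changes of Pdgfra and Pdgfd were 0.41 and 0.36. Without WT 1 they were 2.36 and 2.50. For Pdgfrb in pericyte-like nuclei the log2 change was 0.69 (SE 0.354, edgeR adjusted p = 0.269, 10.1% called), positive without any 1 of the mice, at 0.32 to 1.12. With only barcodes of at least 3000 UMIs it was 0.10 (SE 0.595, edgeR adjusted p = 0.998). In alveolar fibroblast-like nuclei it was 0.73 (SE 0.428, edgeR adjusted p = 0.319).

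The 4 blood EC classes, in which the promoter of the transgene is known to be active, were also summed. There the log2 change was 0.47 for Pdgfb (SE 0.199, edgeR adjusted p = 0.148), 0.06 for Pdgfd (SE 0.232, adjusted p = 0.874), 0.73 for Pdgfa (SE 0.304, adjusted p = 0.141) and -0.37 for Pdgfc (SE 0.263, adjusted p = 0.37). None passed, where 13.5% of all genes did. Pdgfb had a positive log2 change in each of the 4 blood EC classes, from 0.40 in general capillary to 1.02 in venous ECs, as it had in 14 of all 16 classes tested (median 0.42). The cluster with most general capillary nuclei was 37 in WT 1, 36 in WT 2 and 38 in both Tg mice.

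Pdgfd in venous EC-like nuclei came closest to the threshold of all member tests, with a log2 change of 0.97 (SE 0.294, edgeR adjusted p = 0.0504, 10.0% of genes called). Both Tg mice (221 and 248 CPM) were above both WT mice (143 and 108 CPM), on 53, 14, 74 and 70 UMIs. Of all genes tested in the class, 22.5% were higher in both Tg mice, and so were 3 of the 4 members tested (Pdgfa, Pdgfc and Pdgfd). The rise was thus not particular to Pdgfd. The other ligands had log2 changes of 1.11 (Pdgfa), 1.03 (Pdgfb) and 0.45 (Pdgfc) there, and none of them passed. With only barcodes whose class led the next by at least 10 log-likelihood units, the edgeR adjusted p of Pdgfd was 0.0164 (13.4% of genes called). By DESeq2 the adjusted p was 0.423. Without 1 of the mice the log2 change was 0.76 to 1.25. The venous markers summed to 3643 to 5181 CPM in WT and 3787 to 3935 CPM in Tg mice. In the 8 classes tested in which Pdgfd was below the empty droplets in every mouse, its log2 change was negative, with -0.77 in alveolar macrophages, -0.72 in alveolar type 2, -1.08 in dendritic and -0.80 in T cell-like nuclei. Without WT 2 the adjusted p passed the threshold in alveolar macrophages (log2 change -1.22, edgeR adjusted p = 0.0132), alveolar type 2 (-1.04, 0.0212), monocyte or interstitial macrophage-like (-1.12, 0.0219) and T cell-like nuclei (-1.21, 0.00795). In the same fits 19.2, 15.1, 19.5 and 17.4% of all genes passed. The cluster with the most alveolar type 2-like nuclei differed between the mice (33 in WT 1, 7 in WT 2, 1 in Tg 1 and 15 in Tg 2), and that with the most T cell-like nuclei was 9 in WT 1 and 17 in the other mice. For the monocyte or interstitial macrophage-like nuclei it was 4 in WT 1 and Tg 2 and 22 in WT 2 and Tg 1.

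The empty droplets themselves differed between genotypes, with 25.6% of 15180 genes past the threshold. This count rested on the Tg libraries, since 3883 genes passed with all mice, 814 without Tg 2 and 0 without Tg 1 (edgeR, with 3232 at an unadjusted p under 0.05). None of the 6 members passed there. The log2 change was 0.89 for Pdgfa (SE 0.279, edgeR adjusted p = 0.0579), 0.32 for Pdgfb, -0.38 for Pdgfc, -0.58 for Pdgfd (SE 0.268, adjusted p = 0.146), 0.43 for Pdgfra and 0.26 for Pdgfrb. Pdgfa in the empty droplets passed with no filter on low counts (0.86, edgeR adjusted p = 0.0169).

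The genotype difference of each member in a class was therefore also set against that in the empty droplets, as an interaction term in edgeR over the 4 mice. All classes share the same empty droplets and mice in this comparison. Of 108 member tests in the 18 classes, 4 passed, and over all genes 5.93% of tests did. Relative to the empty droplets, Pdgfd was higher in Tg aerocyte ECs by 0.96 on the log2 scale (SE 0.233, edgeR adjusted p = 0.00254, 3.85% of genes called), in general capillary ECs by 0.67 (SE 0.209, adjusted p = 0.0467, 4.81% called) and in venous ECs by 1.62 (SE 0.303, adjusted p = 3.24e-05, 3.05% called). In the blood ECs summed it was 0.69 (SE 0.21, adjusted p = 0.0333, 6.08% called). Pdgfc in alveolar macrophages was 0.87 (SE 0.226, adjusted p = 0.00412, 9.53% called).

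These differences combine a class value of 0.32, 0.04 and 0.97 for Pdgfd, and of 0.37 for Pdgfc, with negative values in the empty droplets. Their calls depended on single mice, while the values moved less, staying between 0.52 and 1.72 without any 1 mouse. Without Tg 1, none of them passed, with values of 0.90 in aerocytes (adjusted p = 0.0776), 0.68 in general capillary (0.0803), 1.51 in venous (0.117) and 0.63 in all blood ECs (0.463), and of 0.71 for Pdgfc in alveolar macrophages (0.367). Without WT 1, the value for Pdgfd passed in venous ECs but not in aerocytes (0.656), general capillary (0.524) or all blood ECs (0.539), and without WT 2 it did not pass in aerocytes (0.735), general capillary (0.692) or all blood ECs (0.605). Without Tg 2, the aerocyte value had an adjusted p of 0.102. Pdgfc in alveolar macrophages did not pass without WT 1 either (0.192).

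Gene length moved with genotype in these libraries. The median log2 change ran from 0.85 for genes spanning under 10 kb to -0.73 for those over 300 kb in general capillary EC-like nuclei, from 0.68 to -0.98 in alveolar macrophage-like nuclei and from 0.91 to -1.32 in the empty droplets. The short members Pdgfa and Pdgfb thus stood beside short genes with positive medians, and the long members Pdgfc and Pdgfd beside long genes with negative ones. The 500 genes nearest in span to Pdgfd had a median of -0.54 in general capillary ECs, -0.36 in venous ECs and -0.996 in the empty droplets, where Pdgfd itself had 0.04, 0.97 and -0.58. For the 500 genes nearest to Pdgfc the median was -0.47 in alveolar macrophages and -0.92 in the empty droplets, against 0.37 and -0.38 for Pdgfc. For those nearest to Pdgfb it was 0.35 in aerocytes, against 0.76 for Pdgfb.

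**Figure D4:**
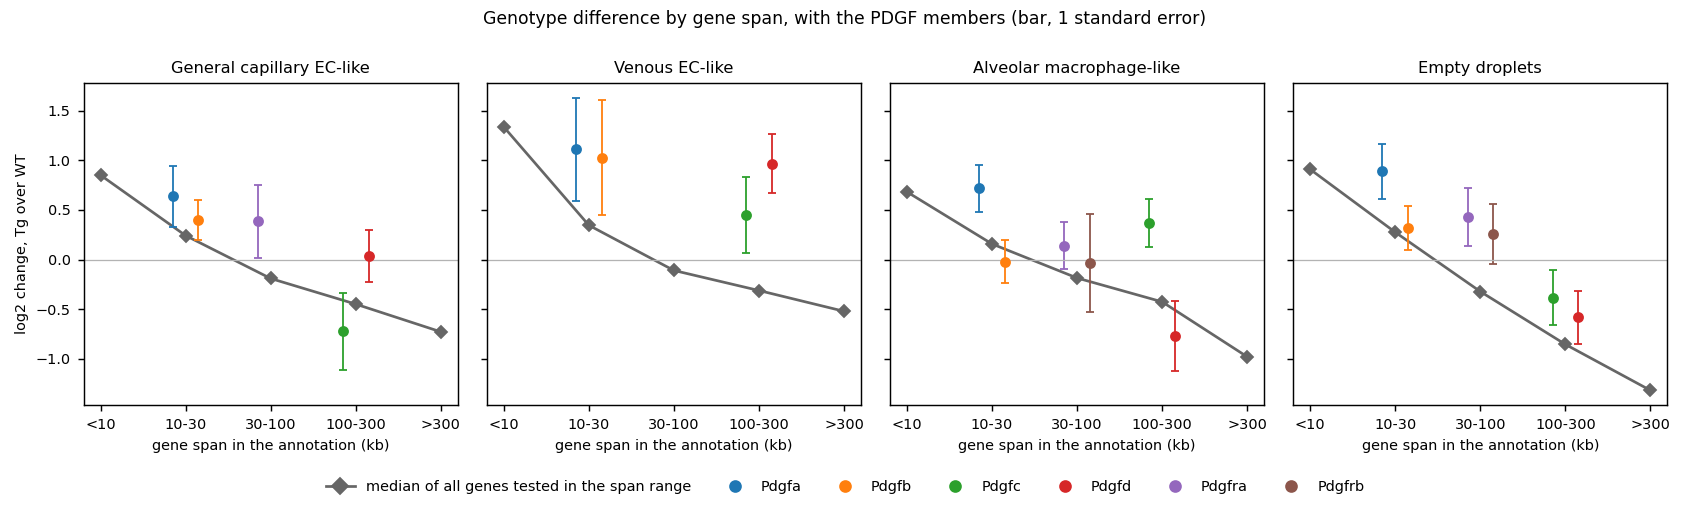
Log2 change of VEcad-TRF2DN-Tg over WT (vertical axis) against gene span (horizontal axis, kb in 5 ranges) in 3 cell classes and in empty droplets. Diamonds are medians of all genes tested in a range and points are the PDGF members with 1 standard error. The medians fall with span in each panel, from 0.91 to -1.32 in the empty droplets, and Pdgfd in venous EC-like nuclei lies above the median of its range.

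The trend with span was then removed in each class, an alternative chosen after seeing the data. With it removed, the log2 change of Pdgfd in venous ECs was 1.33 and passed (SE 0.279, edgeR adjusted p = 0.0169, 3.65% of genes called). Pdgfb in aerocytes then had 0.42 (adjusted p = 0.408), Pdgfra in alveolar fibroblasts 0.82 (adjusted p = 0.295), Pdgfrb in pericytes 0.58 (adjusted p = 0.459), Pdgfc in alveolar macrophages 0.89 (adjusted p = 0.117) and Pdgfa in alveolar type 1-like nuclei 0.07 (adjusted p = 0.858). The 5 differences from the empty droplets no longer passed, with adjusted p of 0.448 for Pdgfd in aerocytes, 0.524 in general capillary, 0.0599 in venous and 0.542 in all blood ECs, and of 0.155 for Pdgfc in alveolar macrophages.

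Over all barcodes of a library, which is closest to a bulk measurement, fewer cells of a type and less RNA per cell cannot be told apart. There Pdgfd had 123, 94.5, 113 and 118 CPM and Pdgfa 46.1, 44.4, 68.0 and 50.5 CPM in WT 1, WT 2, Tg 1 and Tg 2. Pdgfrb was the lowest member, at 8.19 to 8.57 CPM. None of the 6 members passed in this comparison, where 9.35% of genes did, and the log2 changes ran from -0.07 for Pdgfrb to 0.37 for Pdgfa (SE 0.218, edgeR adjusted p = 0.28).

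A list of 32 further genes of the pathway, covering ligand processing, co-receptors, adaptors and effectors, and attenuators, gave 489 tests in the 18 classes. Of these, 38 passed (7.77%, against 9.08% of all gene tests), 14 higher and 24 lower in VEcad-TRF2DN-Tg mice, in 11 of the 32 genes. The median log2 change of the list was -0.28, where the medians of all genes lay between -0.02 and 0.04. The 500 genes nearest in span to each list gene had a median of -0.21 over the same tests, and the list genes differed from them by a median of -0.13. With the span trend removed, 10 of the 489 tests passed (2.04%, against 2.63% of all gene tests), 9 higher and 1 lower, and with free RNA subtracted 0 of 419 did (edgeR, 58 at an unadjusted p under 0.05, against 0.0316% of all gene tests). Both were chosen for this list after seeing the data. Ptprj, a receptor phosphatase known to dephosphorylate PDGFRβ, fell in 11 of 18 classes, by 0.83 to 1.55 on the log2 scale. Cblb, a ubiquitin ligase of receptor degradation, fell in 5 of 18. Lrp1, a co-receptor of PDGFRβ, rose in 8 of 17, by 0.69 to 1.51, and the kinase Akt1 rose in 5 of 13, by 1.01 to 2.02. With the span trend removed, Lrp1 passed in 8 of 17 classes, Ptprj in 1 of 18, and Cblb and Akt1 in 0. With free RNA subtracted none of the 4 passed in any class, at median log2 changes of 1.56 for Lrp1, 1.30 for Akt1, -0.58 for Ptprj and -0.45 for Cblb.

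In general capillary ECs, Lrp1 was at 45.7 and 73.8 CPM in WT and at 129 and 161 CPM in Tg mice (log2 change 1.35, SE 0.246, edgeR adjusted p = 0.0154). Ptprj was at 398 and 426 CPM in WT and at 176 and 220.2 CPM in Tg mice (-0.998, SE 0.194, adjusted p = 0.0177). In alveolar fibroblasts, Ptprj was at 187 and 238 against 58.0 and 93.2 CPM (-1.41, SE 0.256, edgeR adjusted p = 0.00706). The genotypes did not overlap for any of these 3, which was a condition for naming a pathway gene. Of all genes tested, 63.5% did not overlap in general capillary ECs and 58% in alveolar fibroblasts. In pericytes 2 of 18 list genes tested fell and 0 rose, where 10.1% of all genes passed, and in the empty droplets 9 fell and 2 rose of 32, where 25.6% did. The droplets without a nucleus thus showed the same directions, with log2 changes of -1.87 for Ptprj, -1.65 for Cblb, 1.39 for Lrp1 and 1.26 for Akt1 (edgeR adjusted p = 0.0178 to 0.0362). Over all barcodes, 2 of 32 fell and 0 rose, where 9.35% of all genes passed.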

How the data were processed

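Nuclei from the lungs of 2 WT and 2 VEcad-TRF2DN-Tg mice were profiled with the 10x Genomics 3' kit. The deposited files hold raw UMI counts per gene and barcode, which the authors made with Cell Ranger 6.1.1 with intronic reads included, on the mm10 build according to the submitters' processing notes. They hold every barcode, so no call of cells was taken from them. The members and gene lists were chosen with earlier results of these data known.

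Barcodes with at least 1500 UMIs and at most 5% mitochondrial UMIs were assigned with Python 3.11.15, NumPy 2.4.6 and scikit-learn 1.9.0. Counts of 3000 genes, without the PDGF members, were modelled as a mixture of the library's free RNA (barcodes with 300 to 800 UMIs) and a cluster profile, and barcodes that gained at least 10 log-likelihood units over free RNA alone were kept. The k-means clusters that start this model were added to the planned method after the data had been seen, because the first version drifted. A cluster was named when a marker list had a mean log2 ratio of at least 0.8 with 3 markers raised 2-fold, unless free RNA genes (ribosomal, mitochondrial, haemoglobin and similar) led it or its top 10 genes held more markers of another class than of its own. 15 of 70 first clusters with markers of several lineages were dropped and their barcodes refitted. Barcodes explained better by a pair of clusters were left out as doublets, 10.4% in WT 1, 18.2% in WT 2, 25.0% in Tg 1 and 27.1% in Tg 2. Of simulated doublets, 62.3 and 55.5% were marked in WT 1 and WT 2 and 93.5 and 84.5% in Tg 1 and Tg 2, so that doublets were removed less completely in the WT libraries.

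Raw counts were summed by class and mouse and tested with edgeR 4.0.16 (quasi-likelihood, TMM, filterByExpr with a minimum count of 10) in R 4.3.3, with no covariate. DESeq2 1.42.0 was an alternative. The tests ran on simulated counts with 200 changed genes first. With 2 mice in each group, p-values measure the spread between these 4 samples only. Named genes were the 6 members in every class and the 3 genes most like each member. Each member's main test was that in its class of highest mean CPM. Of the called pathway genes, at most 4 in a comparison were named, those without overlap between genotypes and with the largest change. Means, SDs and comparisons with the empty droplets kept a level of 0 as 0, and a floor of 3 counts is given beside some of these. Floors cover counting error only. Replicates differed by 332 and 506 units of chi-square per gene, so each library was counted as its own sample. Spans came from the GENCODE annotation of mm10, matched for 32158 genes (99.6%).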

Additional observations from a re-analysis of the deposited data

Results flagged for a closer look

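In 5 cases the genotype difference of a PDGF ligand in a class differed from that in the empty droplets by a test of the difference itself, edgeR's interaction term. In the 18 classes this was so for 4 of 108 member tests, a smaller share than the 5.93% of all gene tests. For Pdgfd the difference on the log2 scale was 0.96 in aerocyte ECs, 0.67 in general capillary ECs, 1.62 in venous ECs and 0.69 in all blood ECs together. The last of these contains the first 3 classes. For Pdgfc it was 0.87 in alveolar macrophages. For the 500 genes nearest to Pdgfd in span, the median log2 change was -0.996 in the empty droplets, -0.385 in aerocyte, -0.542 in general capillary, -0.362 in venous and -0.507 in all blood ECs. For those nearest to Pdgfc it was -0.924 in the empty droplets and -0.470 in alveolar macrophages. With the trend with gene span removed, the differences were 0.45, 0.30, 1.08 and 0.28 for Pdgfd and 0.54 for Pdgfc, and none had an adjusted p under 0.05.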

How the results depend on the processing

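With 2 mice in each genotype, single mice decided several calls. Arterial sums rested on 13 to 72 and pericyte sums on 32 to 61 barcodes a mouse. Leaving out 1 mouse at a time, the log2 change ranged from -0.10 to 0.45 for Pdgfa in alveolar type 1-like nuclei, 0.51 to 1.02 for Pdgfb in aerocytes, 0.07 to 0.75 for Pdgfc in alveolar macrophages, -0.49 to 0.29 for Pdgfd in arterial ECs, -0.10 to 1.25 for Pdgfra in alveolar fibroblasts and 0.32 to 1.12 for Pdgfrb in pericytes. For the differences from the empty droplets, for which leaving out mice was chosen after seeing the data, it ranged from 0.68 to 0.90 for Pdgfd in aerocytes, 0.52 to 0.87 in general capillary, 1.51 to 1.72 in venous and 0.61 to 0.85 in all blood ECs, and from 0.71 to 1.12 for Pdgfc in alveolar macrophages. A fit with 1 mouse left assumes that it varies like the other group. The difference in the share of arterial ECs with a Pdgfd UMI ranged from -6.62 to 24.7 percentage points.

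With the span trend removed (also chosen after seeing the data), the differences from the empty droplets were 0.45, 0.30, 1.08 and 0.28 for Pdgfd in aerocyte, general capillary, venous and all blood ECs and 0.54 for Pdgfc in alveolar macrophages, and none passed. The number of member tests past the threshold in the classes, 0 as reported, was 4 with no filter on low counts (Pdgfa and Pdgfd in alveolar macrophages, Pdgfd in alveolar type 2 and dendritic cell-like nuclei), 1 with classes leading by 10, 1 with the span trend removed (Pdgfd in venous ECs in both) and 0 to 5 without 1 mouse (Pdgfb in aerocytes passed without Tg 2, Pdgfra in alveolar fibroblasts without WT 1 and Pdgfc in alveolar macrophages without WT 2). Of all gene tests in the classes, 9.08% passed as reported, 9.31% with no filter, 9.59% with classes leading by 10, 2.63% with the span trend removed, and 8.89, 14.9, 1.66 and 5.4% without WT 1, WT 2, Tg 1 and Tg 2. In the empty droplets the number of member tests past the threshold was 1 with no filter. The log2 change of Pdgfd in all blood ECs, 0.06, was -0.01 with at least 3000 UMIs, -0.01 with no doublets left out, -0.11 with free RNA subtracted, 0.58 with the span trend removed (edgeR adjusted p = 0.128), and -0.18 to 0.35 without 1 mouse. The causes were not tested. Over 20 results, 127 of 161 alternative values were the same as reported. For log2 changes this meant the same direction and side of the threshold, for shares the same direction, and for counts of passing tests an equal count. Barcodes with at least 100 but fewer than 300 UMIs gave no value, since they held at most 3 UMIs of a member in a mouse.

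With the replicate number as a block, 13.3% of all gene tests passed in the classes, among them 1 member test (Pdgfd in venous ECs, 0.99, edgeR adjusted p = 0.0243) and 1 in the empty droplets (Pdgfa, 0.85, adjusted p = 0.0353), and the log2 changes in the main classes were 0.17, 0.76, 0.41, -0.16, 0.62 and 0.69 in the order above. The samples shared only a number: the deviations of same-numbered mice correlated at -0.062 to 0.23.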

Other observations

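Barcodes of 4 groups were left unnamed, although in 3 of them a marker list was raised. The group in which genes of the free RNA led, with raised alveolar macrophage or cardiac muscle markers, held 20 barcodes in WT 1, 472 in WT 2, 558 in Tg 1 and 2381 in Tg 2. The group led by Gm15883, B430010I23Rik and Col23a1, with raised club cell markers but none among its top 10 genes, held 2277 barcodes in Tg 2, 153 in Tg 1, 224 in WT 2 and 1 in WT 1. Neither entered a comparison of the PDGF members by class, while the sums over all barcodes include both.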
